A study of Mus musculus with 24 samples.

Results

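Of the 117616 autosomal union regions of this series, 5 were broad H3K27ac regions, and these are described across male and female livers of the mouse strains B6 and CAST. The members were chosen by measured values, namely peak presence and peak width. Peaks of the 4 merged peak lists that overlapped by at least 1 bp were joined into union regions, and a union was kept when every list had a peak in it and its width was 5000 bp or more. A peak in all 4 lists was found in 47477 unions. No union of that width had peaks in fewer than 4 lists, so presence in all lists removed none. The 5 regions lay at the start of Mtss1 on chromosome 15, at the start of Slc38a3 on chromosome 9, at internal starts of Midn on chromosome 10, within Tex2 on chromosome 11, and between genes on chromosome 18, 39.4 kb from the start of Ccny.

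H3K27ac is the acetylation of lysine 27 of histone H3, which marks active promoters and active enhancers. At a working promoter the mark usually flanks the transcription start, where nucleosomes are displaced, and it can spread over many nucleosomes of a gene. Broad stretches of active marks are known from promoters of highly used genes and from clusters of enhancers that govern the identity of a cell type. In liver, H3K27ac has been used to locate enhancers that respond to growth hormone and differ between the sexes.

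The samples were 20 livers in 4 groups of 5, that is male and female C57BL/6J (B6) mice and male and female CAST/EiJ (CAST) mice, together with 4 input DNA controls, 1 for each group. B6 is the reference laboratory strain and CAST is an inbred strain derived from another subspecies. All mice were labelled as 8 weeks old, and no treatment, transgene or engineered allele is named for any group. In the labels, the strain entry reads CAST for females and B6 for males throughout. It goes against the titles of the B6 females and the CAST males, and the groups here follow the titles. Each list was called on the pooled reads of the 5 livers of a group. There are thus no replicate values, no SD and no test for any value that follows, and each difference between lists is a difference between 4 pooled lists.

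The lists held 79862 peaks (B6 male), 82181 peaks (B6 female), 90228 peaks (CAST male) and 84645 peaks (CAST female), covering between 64.2 Mb and 71.7 Mb of the autosomes. Read depth per liver was not analysed here. A start lay inside a region found in all lists for 2 of 6 hepatocyte markers (Apoa1 and Hnf4a), 4 of 8 endothelial, 3 of 8 cholangiocyte, 2 of 8 stellate cell, 0 of 7 Kupffer cell and 0 of 8 lymphocyte markers, against 51.0% of all autosomal protein-coding genes. The starts of the hepatocyte markers Alb, Ttr and Cps1 lay 273 bp, 231 bp and 92 bp outside such a region, and that of Serpina1a lay 95.3 kb away. Only uniquely mapped reads were used, and how well reads map uniquely at Serpina1a was not tested. Whole liver was used, so fewer cells carrying the mark and less of the mark per cell cannot be told apart.

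The DNA of these regions is shown by windows of 200 bases from the mm9 reference (the NCBIM37 assembly), because 3 of the regions held CpG-rich sequence near a start and the others did not. For Mtss1 and Slc38a3 the first window is the stretch just before the transcription start, on the minus strand, at chr15:58913582-58913781 and chr9:107569706-107569905. The remaining windows are on the plus strand and lie at or beside the summit of the strongest B6 male peak, moved at Mtss1 and Midn to avoid exon sequence. These windows are chr15:58912811-58913010, which lies in the first intron of Mtss1 313 bases from the centred position, chr9:107569115-107569314 in the first intron of Slc38a3, chr10:79612013-79612212 in Midn, moved by 102 bases, and chr11:106376039-106376238 in Tex2. The Tex2 region also held 336 coding bases, and their place relative to its window is not given. Bases 5′ to 3′ are in lower case, and capitals mark the GC box GGGCGG or its reverse complement CCGCCC, overlapping copies being run together.
Mtss1 promoter: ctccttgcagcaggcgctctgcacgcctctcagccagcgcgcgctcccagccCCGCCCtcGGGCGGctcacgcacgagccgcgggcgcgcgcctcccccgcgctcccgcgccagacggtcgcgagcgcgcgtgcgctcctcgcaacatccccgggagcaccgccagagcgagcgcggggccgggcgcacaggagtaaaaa
Mtss1 intron: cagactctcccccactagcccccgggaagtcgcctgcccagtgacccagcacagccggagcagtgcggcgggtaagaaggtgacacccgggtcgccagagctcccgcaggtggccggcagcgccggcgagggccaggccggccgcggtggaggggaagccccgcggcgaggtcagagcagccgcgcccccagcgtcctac
Slc38a3 promoter: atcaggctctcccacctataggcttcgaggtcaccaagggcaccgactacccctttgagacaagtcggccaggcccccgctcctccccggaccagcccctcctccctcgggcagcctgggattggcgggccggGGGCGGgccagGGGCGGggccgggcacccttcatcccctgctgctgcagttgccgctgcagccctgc
Slc38a3 intron: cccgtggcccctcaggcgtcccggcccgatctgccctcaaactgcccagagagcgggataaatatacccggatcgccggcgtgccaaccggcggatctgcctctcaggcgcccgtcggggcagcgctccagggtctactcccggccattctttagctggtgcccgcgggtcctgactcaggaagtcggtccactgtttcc
Midn: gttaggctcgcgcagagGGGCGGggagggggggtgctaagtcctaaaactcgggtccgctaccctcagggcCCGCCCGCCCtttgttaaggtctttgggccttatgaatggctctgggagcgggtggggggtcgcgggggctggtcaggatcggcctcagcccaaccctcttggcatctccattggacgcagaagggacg
Tex2 intron: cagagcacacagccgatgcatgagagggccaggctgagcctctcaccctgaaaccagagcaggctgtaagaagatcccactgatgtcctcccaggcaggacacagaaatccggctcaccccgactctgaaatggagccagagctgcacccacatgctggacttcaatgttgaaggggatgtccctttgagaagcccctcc
The window before the Mtss1 start had a GC content of 77% with 34 CpG dinucleotides, and that before the Slc38a3 start had 71.5% with 12. The windows within the first introns had 75% and 21 CpG at Mtss1, and 67% and 19 CpG at Slc38a3. The Midn window had 65.5% and 13 CpG. The Tex2 window stood apart, at 57.5% with 3 CpG.

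The motifs were searched on both strands as exact letters: FOXA as TGTTTAC, HNF4A as CAAAGTCCA, STAT5 as TTCNNNGAA, the GC box as GGGCGG and the E-box as CACGTG. Of the 6 printed windows, 3 held a GC box (both promoters and Midn), and none held the letters of the other motifs. The GC box was present in 39.2% of 43969 windows of 200 bases before protein-coding starts, and in 12.8% of the 47477 summit windows of all regions found in the 4 lists. The other motifs were less common in those summit windows, at 2.45% for FOXA, 0.28% for HNF4A, 5.02% for STAT5 and 2.90% for the E-box. Over their whole widths, the Midn region held 17 GC boxes, the Mtss1 region 9 and the Slc38a3 region 3, while the Tex2 and chromosome 18 regions held 0. FOXA letters occurred 2 times in the chromosome 18 region, 2 times in the Slc38a3 region and 1 time in the Mtss1 region. Across the 5 regions GC boxes stood at 1.10 per kb, against 0.787 per kb over all regions in the 4 lists, FOXA letters at 0.189 against 0.164 per kb, HNF4A letters at 0.0378 against 0.0258 per kb and E-box letters at 0.227 against 0.175 per kb. STAT5 letters were lower, at 0.189 against 0.321 per kb. Apart from the GC box these rates rest on few matches, namely 5 for FOXA, 1 for HNF4A, 6 for the E-box and 5 for STAT5. A match is a run of letters and not a measured binding site.

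The limit of 5000 bp cut the far end of a continuous distribution of widths. The median region found in all lists spanned 1361 bp, 9096 of them were 2000 bp to under 5000 bp wide and 73 were 4000 bp to under 5000 bp wide. The members were 5737 bp wide at Mtss1, 5420 bp on chromosome 18, 5223 bp at Slc38a3, 5092 bp within Tex2 and 5005 bp at Midn. Just below the limit stood Ninj1 at 4983 bp, Scly at 4982 bp, a second region inside Mtss1 at 4840 bp, a region 22.3 kb from Serpina5 at 4838 bp, Trpc4ap at 4748 bp and a region 15.2 kb from Vgll4 at 4705 bp.

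**Figure D1:**
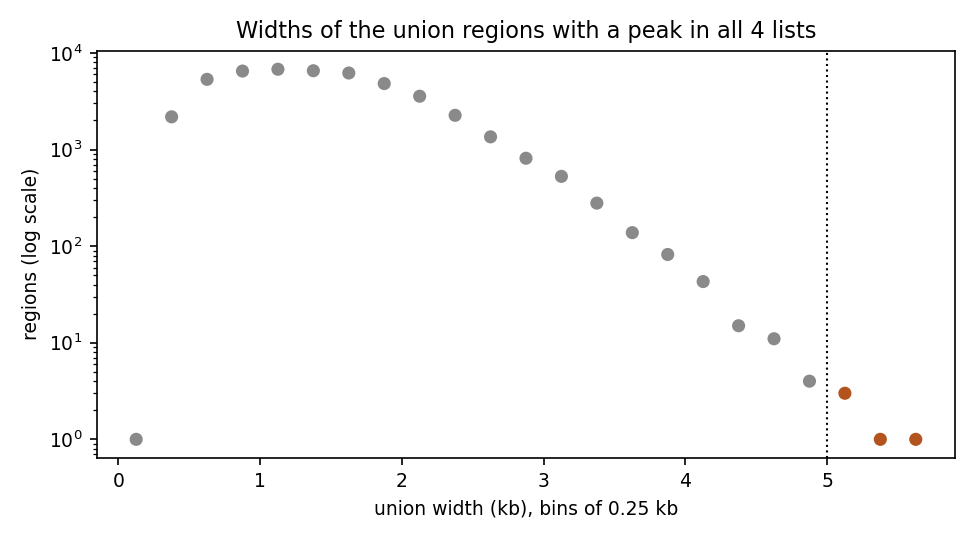
Number of union regions with a peak in all 4 lists (y axis, log scale) against union width in kb (x axis, bins of 0.25 kb). Each point is a bin, orange points are the bins that hold the 5 broad regions, and the dotted line is the limit of 5000 bp. The points fall steadily from the most common widths and continue across the limit without a gap.

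None of these regions was a single domain of 5000 bp. The widest autosomal peak in any list was 4903 bp (B6 male, at Ninj1), and the widest peaks of the other lists were 4595 bp (B6 female), 4862 bp (CAST male) and 4365 bp (CAST female). Each broad region was instead a string of 7 to 18 peaks that overlapped between lists. A single list had 1 to 6 peaks in a region, and the stretches without a peak between them ran from 217 bp to 1246 bp, with a median of 309 bp over 40 such gaps. Between the first and the last peak of a list in a region, peak numbers ran on without a break, so no peak had been removed between them. Peaks removed at the edge of a region would not be seen in this way. The number of bases covered in all 4 lists at once was 3472 at Mtss1, 3183 within Tex2, 2776 at Midn, 2414 on chromosome 18 and 2170 at Slc38a3. As a share of the union this was 41.5% to 62.5%, with a median of 55.5%, against a median of 65.6% for regions of 4000 bp to under 5000 bp. The name broad domain therefore holds for the unions, and not for the peaks of any list.

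Membership leaned on the CAST male list. Without that list 0 regions reached the limit, and the widest remaining pieces of the members were 2573 bp at Mtss1, 4122 bp on chromosome 18, 2159 bp at Slc38a3, 4037 bp within Tex2 and 4947 bp at Midn. Without the CAST female list 2 regions reached it, without the B6 male list 4, and without the B6 female list 5. The Tex2 region was the one that fell short without the B6 male list, at 4287 bp.

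**Figure D2:**
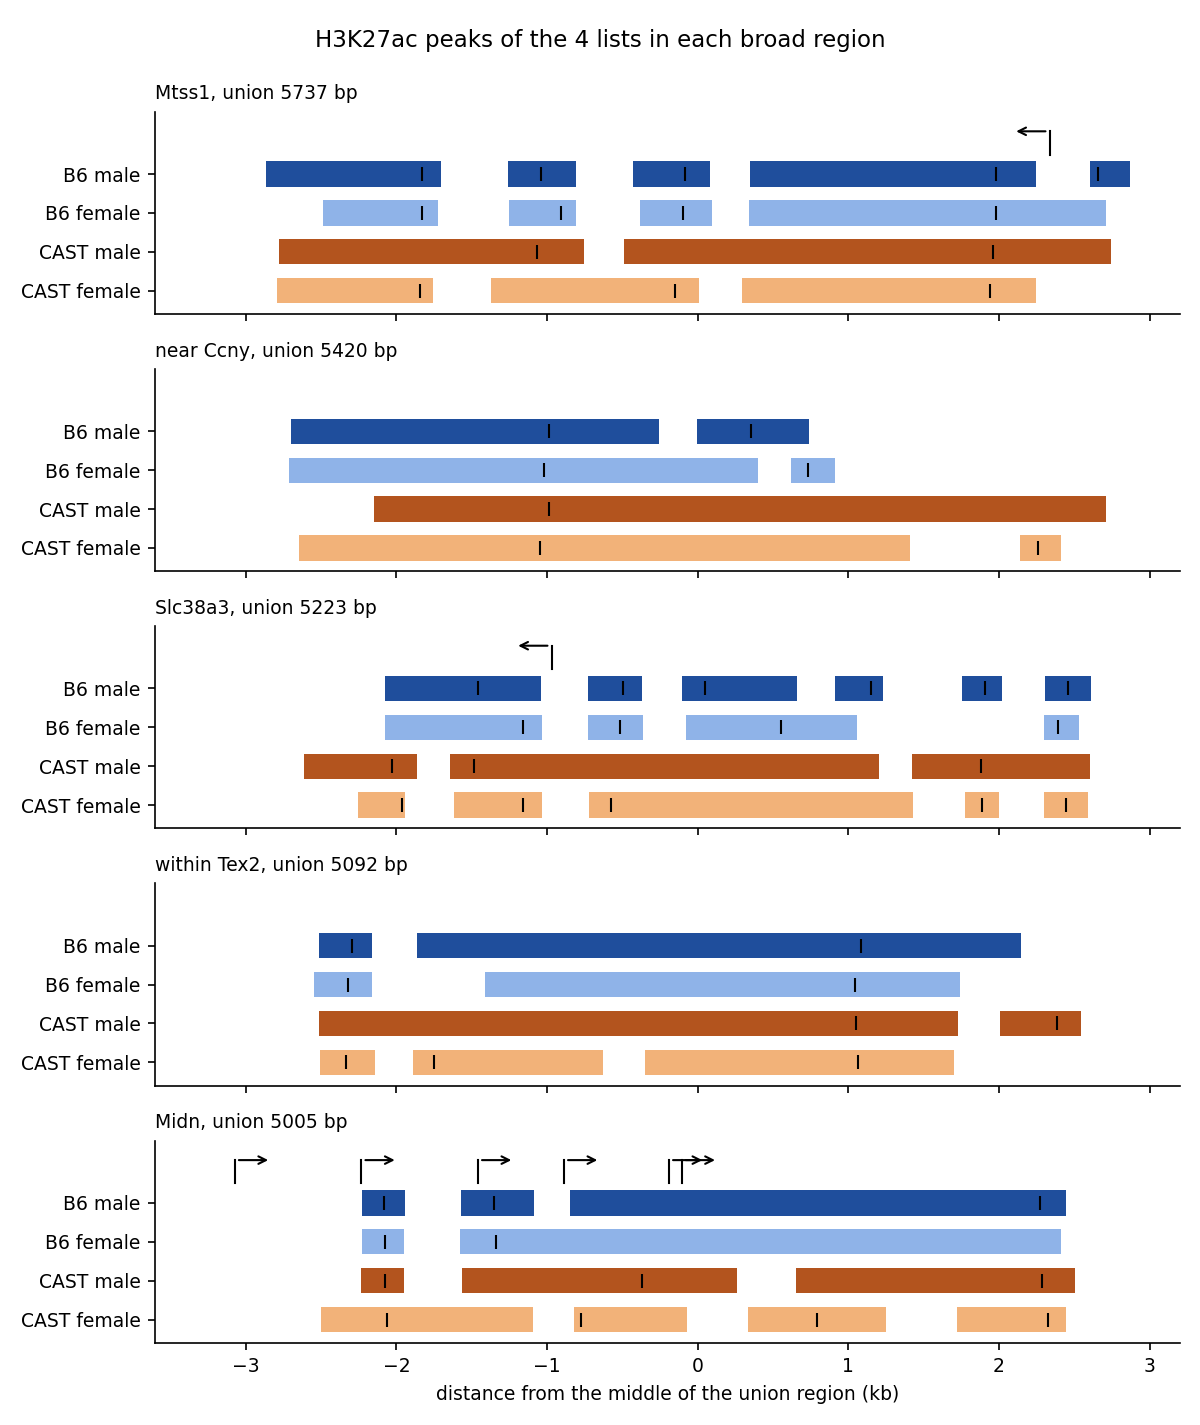
Peaks of the B6 male, B6 female, CAST male and CAST female lists (rows, coloured bars) in the 5 broad regions, against distance from the middle of the union in kb (x axis). Black ticks mark peak summits, and arrows mark annotated transcription starts and their direction. The lists break the same union at different places, the CAST male peaks are long at Mtss1, Slc38a3 and on chromosome 18, and the Slc38a3 start falls in a gap of 3 lists.

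The widest region, chr15:58908376-58914112, covered the start of Mtss1 (ENSMUSG00000022353.8), which encodes a scaffold protein that couples actin to curved membranes. The gene runs on the minus strand from its start at position 58913581, and 3 annotated transcripts begin there. Of the union, 4635 bases were intron, 415 untranslated exon, 156 coding exon and 531 lay upstream of the gene, so the mark extended mainly downstream into the first intron. Peaks numbered 5 in the B6 male list, 4 in B6 female, 2 in CAST male and 3 in CAST female. In every list the peak over the first exon and its intron was the strongest, with fold enrichments over background of 2.29 (B6 male), 2.45 (B6 female), 2.49 (CAST male) and 2.67 (CAST female). The 4 summits lay within 42 bp of each other, 354 to 396 bp downstream of the start. The start itself was covered by a peak in the B6 female and CAST male lists, and lay 94 bp from the nearest peak in the B6 male list and 95 bp in the CAST female list.

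Around the Mtss1 summit, 1897 consecutive bases (chr15:58911590-58913486) had a peak in all lists. Further into the intron the lists diverged. B6 male and B6 female had separate peaks of 456 bp and 446 bp there, each followed by a further one of 517 bp and 482 bp, where the CAST male list had a peak of 2023 bp and the extended end of its 3233 bp peak. Bases with a peak in both CAST lists and neither B6 list numbered 265, and none had a peak in both B6 lists only. Mtss1 as a whole, a gene of 140.8 kb, held 20 regions found in all lists, including the 4840 bp region just below the limit.

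The Slc38a3 region, chr9:107568063-107573285, held the start of the gene for a sodium-coupled glutamine transporter of the liver cell membrane (ENSMUSG00000010064.8, minus strand, start at 107569705). Here 3580 bases lay upstream of the gene, 1404 in intron and 239 in untranslated exon, so the mark extended mostly into the interval between Slc38a3 and the neighbouring Gnat1, which encodes a transducin subunit of rod photoreceptors. This was the most broken of the regions, with 18 peaks. The B6 male list had 6 peaks, the longest of 1036 bp, and the B6 female list had 4, the longest of 1136 bp. CAST male had 3 peaks with the longest at 2846 bp, and CAST female 5 with the longest at 2149 bp.

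The start of Slc38a3 was covered only by the CAST male list. In the other lists it lay 70 bp (B6 male), 66 bp (B6 female) and 68 bp (CAST female) from the nearest peak, in a gap whose edges agreed closely, at 107569635 and 107569949 in B6 male, 107569639 and 107569945 in B6 female, and 107569637 and 107569955 in CAST female. The strongest peaks were low in every list, with fold enrichments of 1.82 (B6 male), 1.91 (B6 female), 1.85 (CAST male) and 1.91 (CAST female). Their summits fell at 2 places, near 107569215 and 107569187 in the male lists and 107569512 and 107569516 in the female lists, inside the same stretch downstream of the start. Bases with a peak only in the CAST male list numbered 1262, the highest such count among the 5 regions.

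The Midn region, chr10:79611588-79616592, began downstream of the main start of Midn (ENSMUSG00000035621.7, plus strand, 79611017), which codes for midnolin, a nuclear protein that carries other proteins to the proteasome. That start was 571 bp outside the union, and 5 further annotated starts lay inside it. The union lay wholly within the gene, with 3481 bases of intron, 902 of untranslated exon, 548 of coding exon and 74 of other exon. A narrow first peak recurred in 3 lists, with widths of 288 bp (B6 male), 276 bp (B6 female) and 284 bp (CAST male), and was part of a 1407 bp peak in CAST female. The summits of the strongest peaks lay within 14 bp over the lists, where the median over all regions in the 4 lists was 149 bp. Their fold enrichments were 2.22 (B6 male), 2.2 (B6 female), 2.12 (CAST male) and 2.16 (CAST female), the narrowest range of the 5 regions after Slc38a3.

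Beyond that first peak, the B6 female list had 1 peak of 3986 bp, the B6 male list had 2 of 483 bp and 3292 bp, the CAST male list had 2 of 1827 bp and 1848 bp, and the CAST female list had 3 of 748 bp, 915 bp and 723 bp. This was the only one of the 5 regions in which a B6 list, that of the females, covered the most bases. Bases with a peak in both B6 lists only numbered 73, and those in both CAST lists only 3.

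The Tex2 region, chr11:106372510-106377601, lay inside the gene Tex2 (ENSMUSG00000040548.9, minus strand, chr11:106363461-106474737), in 4756 bases of intron and 336 of coding exon. The nearest start of Tex2 was 62.8 kb away, the nearest start of any kind was that of the small nucleolar RNA gene SNORA76 at 9.95 kb, and the nearest protein-coding start was that of Ern1, which encodes the endoplasmic reticulum stress sensor IRE1, at 23.3 kb. The region was thus far from a promoter. Its strongest peaks had the highest fold enrichments among the members in every list, at 2.48 (B6 male), 2.70 (B6 female), 2.79 (CAST male) and 3.10 (CAST female). The summits lay within 37 bp of each other. An uninterrupted stretch of 2052 bases (chr11:106374708-106376759) had a peak in all lists, the longest such stretch of any member.

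Both male lists had more of the Tex2 region under a peak than the female lists of their strain. The B6 male list had a peak of 4011 bp where the B6 female list had one of 3155 bp, and the CAST male list had a peak of 4241 bp where the CAST female list had peaks of 1263 bp and 2052 bp. Bases with a peak in both male lists and neither female list numbered 143, and none had a peak in both female lists only. In the other regions these male-only bases numbered 56 (Slc38a3), 54 (Mtss1), 0 (Midn) and 0 (chromosome 18).

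The chromosome 18 region, chr18:9489573-9494992, was the only member outside any annotated gene. Its nearest start was that of Ccny, which encodes cyclin Y, at 39.4 kb. It had the fewest peaks, 7 in all, and in the CAST male list it was a single peak of 4862 bp, the widest of that list. The strongest peaks had fold enrichments of 2.44 (B6 male), 2.5 (B6 female), 2.67 (CAST male) and 2.49 (CAST female), and their summits lay within 61 bp. The CAST male peak began at 9490131, whereas the other lists began within 62 bp of the left edge. On the right, B6 male peaks ended at 9493022 and B6 female peaks at 9493192, whereas CAST female peaks reached 9494696 and the CAST male peak 9494992. Bases under a peak in both CAST lists and neither B6 list numbered 776, the most of any member, and a further 1024 were in the CAST male list alone.

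The covered bases of each list give the comparison over the 4 groups. At Mtss1 the lists covered 4303 bp (B6 male), 4062 bp (B6 female), 5256 bp (CAST male) and 4362 bp (CAST female). At Slc38a3 they covered 3044 bp (B6 male), 2776 bp (B6 female), 4775 bp (CAST male) and 3558 bp (CAST female). The CAST male list stood well above the other lists in both. On chromosome 18 the values were 3183 bp, 3398 bp, 4862 bp and 4334 bp, both CAST lists lying above both B6 lists. Within Tex2 they were 4362 bp, 3540 bp, 4783 bp and 3679 bp, both male lists lying above both female lists. At Midn they were 4063 bp, 4262 bp, 3959 bp and 3793 bp, both B6 lists lying above both CAST lists.

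**Figure D3:**
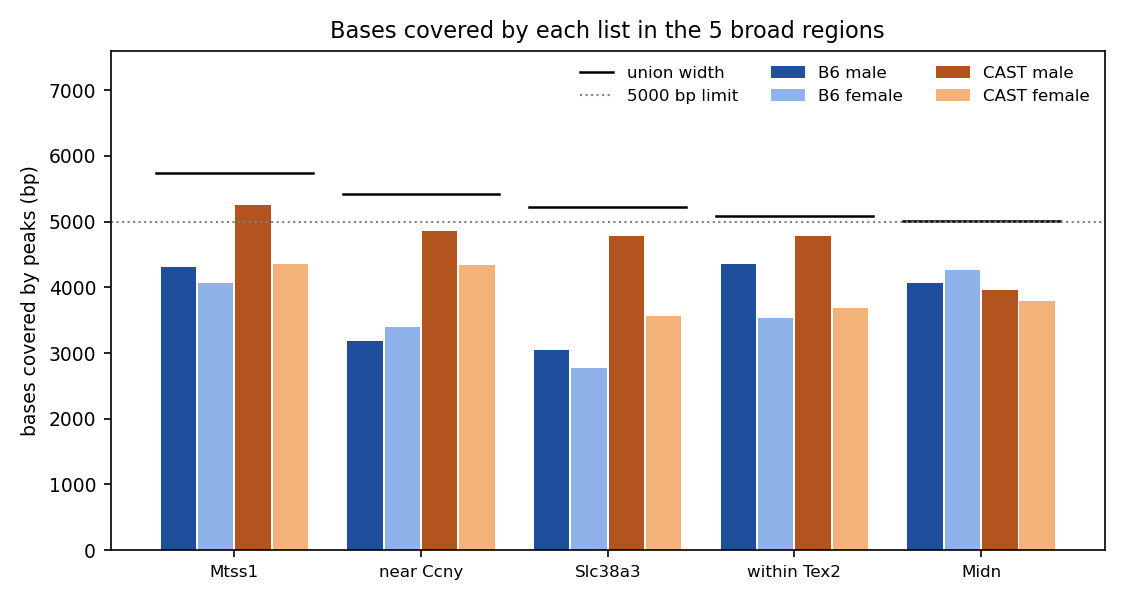
Bases covered by peaks (y axis, bp) in each of the 5 broad regions, by list (coloured bars). Black lines give the union width and the dotted line the limit of 5000 bp. CAST male is the highest bar in 4 regions and B6 female at Midn, and only the CAST male list at Mtss1 passes the limit by itself.

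CAST male covered the most bases in 4 of 5 members, whereas over all 47477 regions in the 4 lists it did so in 26.7%, and in 23 of the 73 regions of 4000 bp to under 5000 bp. Since union width chose the members, and a list with long peaks lengthens the union, this count is a description and is not independent of the choice.

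Males against females were compared within each strain, as a description, since the widths that chose the members rest on the same covered bases and above all on the CAST male list. The CAST male list covered more bases than the CAST female list in 5 of 5 members (62.0% of all regions in the 4 lists and 57 of the 73 regions of 4000 bp to under 5000 bp), with ratios of 1.34 at Slc38a3, 1.3 within Tex2, 1.2 at Mtss1, 1.12 on chromosome 18 and 1.04 at Midn. The B6 male list covered more than the B6 female list in 3 of 5 members (57.2% of all regions and 50 of those 73), with ratios of 1.23 within Tex2, 1.10 at Slc38a3 and 1.06 at Mtss1. The remaining regions had ratios of 0.937 on chromosome 18 and 0.953 at Midn. The sexes thus differed in opposite directions in the 2 strains at 2 of 5 members, a share near that of all regions (46.7%). No member differed between the sexes by 1.5-fold in either direction. By that measure 0 of 5 were wider in males of both strains, where 2.70% of all regions were, and 0 of 5 were wider in females of both strains, where 0.942% were. None of the 73 regions of 4000 bp to under 5000 bp met either rule. With 5 members, a share of 0 has a 95% Wilson interval that reaches 43.4%, for counting error only. The median log2 ratio of male over female covered bases was 0.08 in B6 and 0.27 in CAST, against 0.04 and 0.06 over all regions in the 4 lists and 0.06 and 0.11 over the regions of 4000 bp to under 5000 bp. The B6 median turned to -0.28 by the longest single peak in place of covered bases, and to -0.018 when only peaks with a −log10 q-value of at least 5 were kept. The CAST median was 0.41 and 0.26 under those settings. It was 0.13 at a limit of 4000 bp and 0.17 when peaks up to 500 bp apart were merged.

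**Figure D4:**
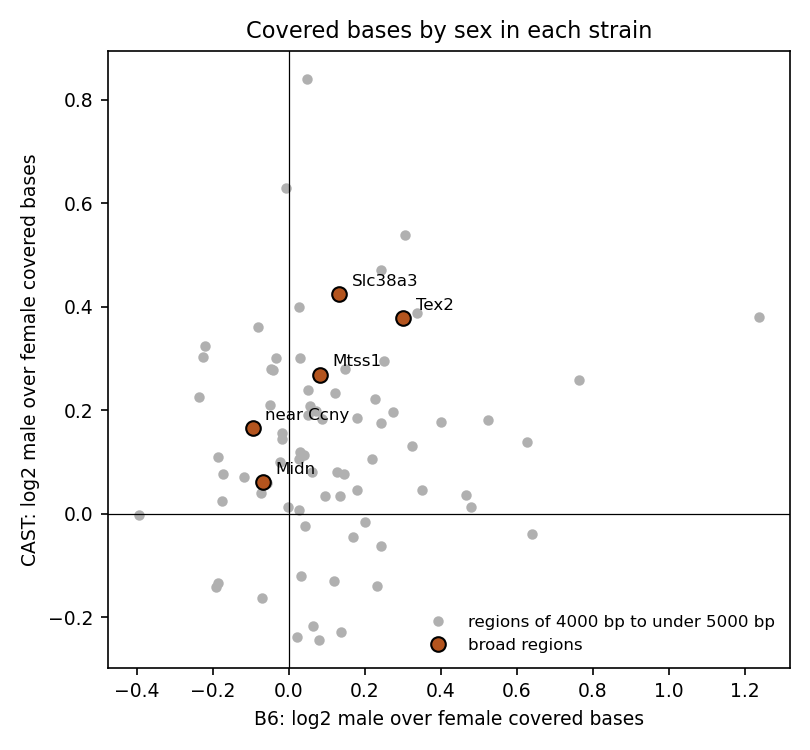
Log2 ratio of male over female covered bases in CAST (y axis) against B6 (x axis). Orange points are the 5 broad regions and grey points the 73 regions of 4000 bp to under 5000 bp. All broad regions lie above 0 in CAST, and Midn and the chromosome 18 region lie left of 0 in B6.

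CAST against B6 was compared within each sex, again as a description of values that the choice of members used. The CAST male list covered more bases than the B6 male list in 4 of 5 members (46.4% of all regions in the 4 lists), with ratios of 1.57 at Slc38a3, 1.53 on chromosome 18, 1.22 at Mtss1 and 1.10 within Tex2, and 0.974 at Midn. The CAST female list covered more than the B6 female list in 4 of 5 (43.3% of all regions), with ratios of 1.28 at Slc38a3, 1.28 on chromosome 18, 1.07 at Mtss1 and 1.04 within Tex2, and 0.890 at Midn. The order of the regions was thus alike in both sexes, Slc38a3 and chromosome 18 having the most added bases in CAST and Midn fewer. In males the 1.5-fold mark was passed at 2 of 5 members in the CAST direction (8.50% of all regions, but 0 of the 73 regions of 4000 bp to under 5000 bp) and at 0 of 5 in the B6 direction (9.42%). Long CAST male peaks lengthen the union, so that count is built into the choice of members. In both sexes together it was passed at 0 of 5 in the CAST direction (2.92%) and at 0 of 5 in the B6 direction (3.96%). The median log2 ratio of CAST over B6 was 0.29 in males and 0.10 in females, but -0.038 in males and -0.054 in females over the 78 regions of 4000 bp or more. In females it was also -0.28 by the longest single peak and -0.032 when peaks up to 500 bp apart were merged. The male median was 0.77 and 0.052 under those settings, and 0.50 with only peaks of a −log10 q-value of at least 5. The sex and strain comparisons use the same 4 lists, so they are not independent of each other. CAST reads were mapped to a CAST genome and converted to mm9 coordinates, and the part of this step in the widths was not tested.

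By the signal of their peaks these regions were low in fold enrichment, and all but the chromosome 18 region were high in reads. The score of the strongest peak in a member lay between the 60.4th and the 89.7th percentile of its list, with a median at 78.7. Fold enrichments of these peaks, 1.82 to 3.10, lay below the median over all regions in the 4 lists in every member and list but one, the Tex2 region in CAST female. Those medians were 3.03 (B6 male), 3.03 (B6 female), 3.25 (CAST male) and 3.07 (CAST female), and the medians of the 73 regions of 4000 bp to under 5000 bp were lower too, at 2.73, 2.90, 3.10 and 2.97. Those of the 9096 regions of 2000 bp to under 5000 bp lay above the overall medians, at 3.6, 3.64, 3.9 and 3.71. Each peak's fold enrichment and p-value were solved together, which returned the number of reads at its summit and the local background. The study's methods name input DNA as the background of the peak calls, but the lists do not show its source. The summit reads came out whole, to within 0.02, for 99.9% or more of the autosomal peaks solved in each list.

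Summit pileups were highest at Mtss1, with 405 reads (B6 male), 403 reads (B6 female), 499 reads (CAST male) and 439 reads (CAST female), all at or above the 97.7th percentile of the regions in the 4 lists. Over the lists Midn had 303 to 394 reads, Slc38a3 320 to 381 and Tex2 273 to 324. The chromosome 18 region was lowest, with 200 reads (B6 male), 117 reads (B6 female), 214 reads (CAST male) and 161 reads (CAST female), against medians of 126, 123, 133 and 112 reads over all regions. Only its B6 female value lay below the median. The regions of 4000 bp to under 5000 bp had median pileups of 284, 290, 337 and 265 reads. These reads are not scaled for depth. In B6 the local background there was also higher in males, at 81.3 against 46.3 reads in females, and the fold enrichment was not, at 2.44 against 2.5.

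The local background moved with these pileups. At Mtss1, Slc38a3 and Midn it lay between 140 and 205 reads, above the 99.5th percentile of all regions in every list, where the medians were 36.5 (B6 male), 35.7 (B6 female), 35.8 (CAST male) and 31.6 (CAST female). Within Tex2, away from any promoter, it was 87.3 to 115 reads, at or above the 94.8th percentile, and on chromosome 18 it was 46.3 to 81.3 reads, above the median in each list. The regions of 4000 bp to under 5000 bp also had raised backgrounds, with medians of 106 (B6 male), 100.3 (B6 female), 108 (CAST male) and 83.8 reads (CAST female). The part of the background in the widths was not tested.

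**Figure D5:**
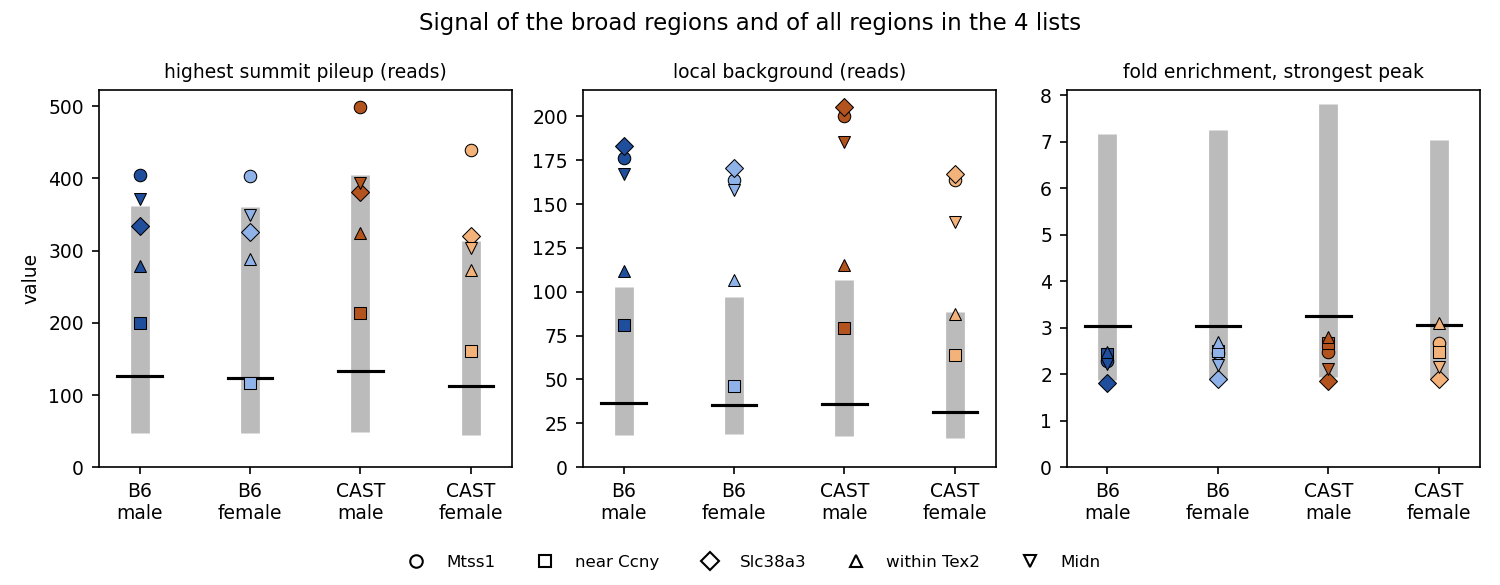
Highest summit pileup (left, reads), local background at the strongest peak (middle, reads) and fold enrichment of the strongest peak (right) by list. Symbols are the 5 broad regions, grey bars run from the 5th to the 95th percentile of all regions found in the 4 lists, and black lines are medians. Mtss1, Slc38a3 and Midn lie above the grey bar for background in each list and Tex2 in all but CAST female, and Slc38a3 lies below the bar for fold enrichment in all but B6 female.

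A transcription start lay within 2.5 kb of 3 of the 5 regions, a promoter share of 60% with a 95% Wilson interval of 23.1% to 88.2%. The share was 54.8% (43.4% to 65.7%) for the 73 regions of 4000 bp to under 5000 bp, and 37.2% (36.7% to 37.6%) for all 47477 regions. The interval of the members includes both values. A wider region has more room to hold a start. In a fixed window of 500 bp at the middle of each region, 1 of 5 members held a start, against 14.8% of all regions and 12.3% of those of 4000 bp to under 5000 bp.

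Base composition separated the regions along the same line. GC content was 63.4% at Midn, 54.9% at Slc38a3, 52.1% at Mtss1, 49.2% within Tex2 and 46.2% on chromosome 18, the median over all regions in the 4 lists being 48.2%. The observed over expected ratio of CpG dinucleotides was 0.528 at Mtss1, 0.505 at Midn and 0.326 at Slc38a3, above the overall median of 0.243. It was 0.240 within Tex2 and 0.0587 on chromosome 18, where only 2.09% of all regions had a lower value.

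Other marked regions were common near some members. Within 25 kb on either side, the Midn region had 9 other regions found in all lists and the Tex2 region 8, which 97.0% and 94.1% of all regions did not reach. The Mtss1 and Slc38a3 regions had 4 each and the chromosome 18 region 2, around the overall median of 3. The Tex2 gene, over 111.3 kb, held 16 regions found in all lists, the second widest at 3851 bp.

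The broad regions held no start of a gene from 17 lists of liver, signalling and cell type genes. Of the 24 autosomal hepatocyte transcription factor genes 0 started in a broad region, and 0 of the 24 plasma carrier and apolipoprotein genes did so, each a share of 0 with a 95% Wilson interval up to 13.8%. Across all lists together 0 of 345 autosomal genes did. Over all 21281 autosomal protein-coding genes 3 did, namely Mtss1, Slc38a3 and Midn, or 0.0141%, so a count of 0 among the listed genes lies near that background. The regions of 4000 bp to under 5000 bp held the starts of listed genes that included Cebpa, a transcription factor of hepatocytes, Nr2f6, an orphan nuclear receptor, Cpt1a, which admits fatty acids into mitochondria, and Slc2a2, the hepatic glucose transporter. In a narrower region found in all lists there started 20 of 24 hepatocyte transcription factor genes, 17 of 24 plasma carrier and apolipoprotein genes and 19 of 20 constitutive housekeeping genes, against 51.0% of all autosomal protein-coding genes.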

How the data were processed

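Per the labels and the study's methods, the authors sequenced H3K27ac ChIP-seq libraries from 20 livers and 4 input controls, aligned unique reads with Bowtie2 to mm9 (CAST reads to a CAST genome, with coordinates then converted to mm9), called MACS2 peaks over input, and removed blacklisted regions. The merged list of each group was used. For every peak the lists deposited by the authors give a score, a fold enrichment (a ratio over the local background), −log10 p- and q-values, and the other column used, the offset of the summit. No column belonged to other samples.

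From these files, autosomal peaks were joined with Python 3.11.15, pandas 2.3.3 and numpy 2.4.6, requiring 1 bp of overlap. Covered bases were counted per list, starts were taken from GENCODE vM1 on the NCBIM37 assembly, and sequence was read with pysam 0.24.0. Wilson intervals (95%, statsmodels 0.14.6) cover counting error only. Summit reads and local background were solved from fold enrichment and p-value, using scipy 1.17.1. The merging, counting and solving steps were tested on simulated data. Regions were to be named by the protein-coding gene whose start they hold, otherwise by the nearest protein-coding start. The region within Tex2, whose nearest protein-coding start is that of Ern1, is called by the gene it lies in, and all 5 members are named. The members, gene lists and alternatives were chosen with earlier results of these data known. The 1.5-fold mark, the 2.5 kb limit and the width limit were varied, each list was left out in turn, peaks with a −log10 q-value under 5 were dropped, and lists were shortened to 79862 peaks. Read depth and per-liver values were not analysed here. Drawings were made with matplotlib 3.10.9.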

Additional observations from a re-analysis of the deposited data

Results flagged for a closer look

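Sex differences in covered bases ran in opposite directions in the 2 strains at 2 regions. On chromosome 18 the log2 ratio of male over female covered bases was -0.094 in B6 and 0.17 in CAST. At Midn it was -0.069 in B6 and 0.062 in CAST. Opposite signs were about as common elsewhere, at 46.7% of all regions in the 4 lists and 31 of the 73 regions of 4000 bp to under 5000 bp. Each value rests on 1 pooled list per group, and the difference between the strains was not tested.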

How the results depend on the processing

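The number of broad regions rested on the width rule. It was 78 at a limit of 4000 bp, 143 when peaks up to 500 bp apart were merged, 0 at a limit of 8000 bp and 0 when 5000 bp had to be covered in all lists, so the latter settings gave no promoter share or ratio. Dropping peaks with a −log10 q-value under 5 gave 4 and equal list lengths 5. Leaving out each list in turn gave 0 to 5 regions, the 0 without the CAST male list, and a promoter share of 0% (without the CAST female list, 2 regions left) to 75%, with no value without the CAST male list. The promoter share was 20% in the fixed window at the middle. With peaks up to 500 bp apart merged, 20.8% (9.2% to 40.5%) of plasma carrier and apolipoprotein genes started in a region. For hepatocyte transcription factor genes it was 12.5% (4.3% to 31.0%). The share over all protein-coding genes at that setting is not given here, so these shares have no background beside them. With the longest single peak in place of covered bases, the median log2 ratio of male over female was -0.28 in B6, and that of CAST over B6 was 0.77 in males and -0.28 in females. At a limit of 4000 bp the CAST over B6 median was -0.038 in males and -0.054 in females, the latter also turning to -0.032 after merging across gaps of up to 500 bp. With a −log10 q-value of at least 5 the B6 male over female median was -0.018. Of 77 values under alternatives, 64 stayed within 1.5 times the count, the interval or the range over members. Some of these could not move. Where 0 regions were left the gene shares are 0, and sex shares of 0 at 1.5-fold stay 0 at a higher mark. The total therefore overstates how stable the results were. No paired analysis was possible because each list pools the 5 livers of its group and carries no replicate number. Peak widths can depend on depth and background, which these lists give only at summits, and this dependence was not tested. In addition, 5 members limit every share.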
